A study of Mus musculus with 11 samples.

Results

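The chloride intracellular channel (Clic) genes were examined in RNA-Seq libraries of purified granule cell precursors (GCps) of the cerebellum, the dividing cells that give rise to granule neurons. The family was taken by gene symbol, and its 5 members, Clic1, Clic3, Clic4, Clic5 and Clic6, were found among the 38924 genes of the count files and all were among the 16436 genes that passed the expression filter. The family was chosen because Clic6 had a large and steady difference between genotypes in these same libraries, so the fold changes of its members are given as a description, without p-values. The comparison is of 2 cko libraries (Math1-Cre Chd7 fl/fl, in which Cre driven by a Math1 transgene removes the chromatin remodeler gene Chd7 from the granule cell lineage) with 2 control libraries, all from postnatal day 7 mice on a C57Bl/6J background. The control genotype is Chd7flox/+ in the sample labels and 2 floxed alleles without Cre in the submitters' extraction notes. Cerebella were pooled by genotype, lobules IX and X, where the transgene is inefficient, were removed, and GCps were enriched on a Percoll gradient. No source used here says that the replicate libraries came from separate animals, so SDs measure only the spread between these libraries, and in bulk RNA fewer cells of a type cannot be told apart from less RNA per cell.

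CLIC proteins are unusual among ion channel proteins because they exist both as soluble proteins in the cytosol and as proteins inserted in membranes. The soluble form has the fold of the omega class of glutathione transferases, with a glutaredoxin-like active site, and several members act at the border of the actin cytoskeleton and the plasma membrane with ezrin-type linkers. CLIC1 forms a redox-sensitive chloride channel in artificial membranes, CLIC4 acts in the formation of blood vessel lumens and in transport of vesicles, CLIC5 is needed in the stereocilia of hair cells, CLIC3 acts in the recycling of integrins, and CLIC6, once called parchorin, is known from water-secreting epithelia such as the choroid plexus. The choroid plexus lies against the cerebellum in the fourth ventricle, so its markers are given beside the values of Clic6.

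The 5 genes share a coding structure, in which Clic6 differs by a long first coding segment. In GENCODE vM21 (GRCm38, the assembly called mm10) the longest coding transcript of each gene has 6 coding segments, and segments 2, 3 and 4 are 110, 126 and 107 bases long in all 5 genes. Segment 5 has 182 bases in each gene other than Clic3, where it has 176. Segment 1 has 36 to 72 bases in the 4 paralogs and 1104 bases in Clic6, so that the coding sequence of Clic6 has 1788 bases against 711 to 759 in the others. Segment 2, which holds the codons of the glutaredoxin-like active site, is shown for each gene, 5′ to 3′ along the gene in GRCm38, with the 56 of 110 bases that are identical in all 5 genes in capitals.
Clic6 (chr16:92528060-92528169, plus strand): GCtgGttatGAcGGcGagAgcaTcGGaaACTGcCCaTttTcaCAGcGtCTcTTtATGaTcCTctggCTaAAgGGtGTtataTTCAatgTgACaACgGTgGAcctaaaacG
Clic5 (chr17:44237133-44237242, plus strand): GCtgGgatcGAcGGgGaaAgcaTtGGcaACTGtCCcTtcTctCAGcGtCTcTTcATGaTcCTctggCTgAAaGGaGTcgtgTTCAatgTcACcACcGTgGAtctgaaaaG
Clic4 (chr4:135238862-135238971, minus strand): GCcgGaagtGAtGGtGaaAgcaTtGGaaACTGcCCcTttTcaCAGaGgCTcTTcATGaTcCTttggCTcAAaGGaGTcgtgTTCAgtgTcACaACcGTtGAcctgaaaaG
Clic1 (chr17:35052435-35052544, plus strand): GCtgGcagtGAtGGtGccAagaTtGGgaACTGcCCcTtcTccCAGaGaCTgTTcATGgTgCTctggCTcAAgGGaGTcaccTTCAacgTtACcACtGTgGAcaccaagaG
Clic3 (chr2:25457661-25457770, plus strand): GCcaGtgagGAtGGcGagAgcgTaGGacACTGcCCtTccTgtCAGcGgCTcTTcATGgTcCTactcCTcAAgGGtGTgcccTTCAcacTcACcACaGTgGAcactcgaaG
Within this segment Clic6 matched Clic4 and Clic5 at 85 of 110 bases each (77.3%), Clic1 at 76 (69.1%) and Clic3 at 73 (66.4%). Over the aligned coding sequence Clic6 was 68.9% identical to Clic5, 68.4% to Clic4, 61.7% to Clic1 and 59.9% to Clic3. The longest run of identical bases between transcripts of Clic6 and those of any paralog was 17 (with Clic5), and the longest run between any 2 members was 23 (Clic4 and Clic5). Exonic reads longer than 23 bases therefore had no exact match in a second member. No exonic base of any member overlapped another counted gene, although Clic3 lies on the opposite strand within the span of Paxx.

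**Figure D1:**
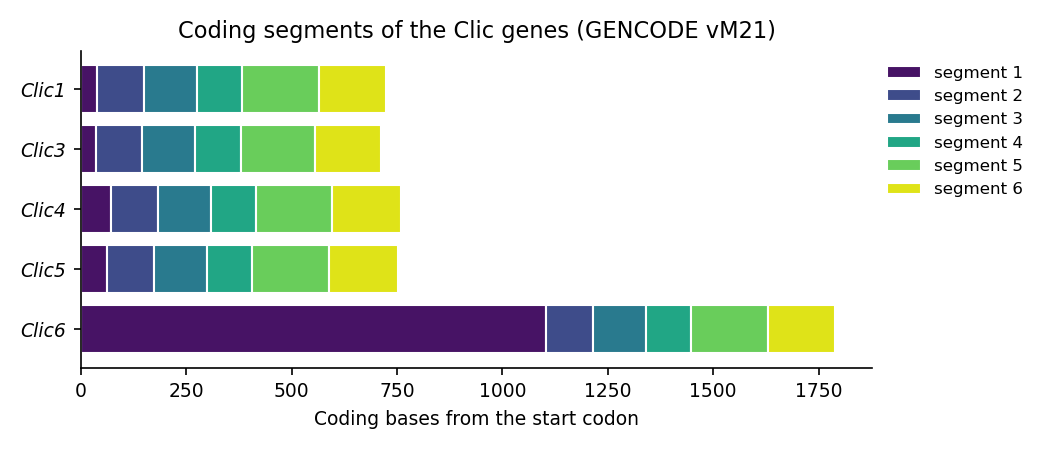
Coding segments of the 5 Clic genes drawn end to end, with coding bases from the start codon on the horizontal axis and 1 bar per gene, colored by segment. Segments 2 to 4 have the same lengths in every gene, and segment 1 has 1104 bases in Clic6 and at most 72 in the others.

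Library totals ran from 61836588 to 77346481 counts. Chd7, counted over the whole gene (chr4:8690406-8867659), was at 322 and 319 CPM (counts per 1000000 at TMM-scaled library size) in the control and 392 and 355 CPM in the cko libraries, so the count of the whole gene does not check the deletion. The replicate 1 cko library held Xist at 793 CPM and no Ddx3y, unlike the other 3 libraries, the pattern of female tissue, so sex was not balanced between genotypes. The 14 markers of GCps, all tested, had summed levels of 7756 to 8171 CPM in control and 7400 to 8086 CPM in cko libraries. The edgeR quasi-likelihood test called 1 of them against 1.58% of all tested genes, and DESeq2 called 5 (2 higher and 3 lower) against 5.36%. At an unadjusted p under 0.05 in edgeR's test 3 were higher and 4 lower, against 13.6% of all tested genes in either direction. Both cko libraries were above both control libraries for 6 of the 14 and below for 5, against 22.7% and 21.2% of all tested genes. The gene called by edgeR, the transcription factor gene Nhlh1, fell in cko GCps, with an adjusted p of 0.0467 and a log2 fold change of -0.60 ± 0.10 (standard error). Its adjusted p in edgeR was 0.0685 without cko replicate 1, 0.237 without control replicate 1 and 0.131 without control replicate 2, so that its call was lost.

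Clic6 had a low level in control GCps and a level about 7-fold higher in cko GCps. The gene (ENSMUSG00000022949) lies on chromosome 16, chr16:92485736-92541243, on the plus strand. It had 394 and 250 counts in control replicates 1 and 2, and 2566 and 2082 counts in cko replicates 1 and 2. Scaled to library size, these were 5.14 and 4.14 CPM in control and 33.3 and 33.9 CPM in cko libraries. Both cko libraries were above both control libraries, and the lower cko value was 6.47 times the higher control value. The control mean was 4.64 ± 0.707 CPM and the cko mean 33.6 ± 0.409 CPM (SD, n = 2 libraries each), a ratio of 7.23. The fitted log2 fold change was 2.85 (standard error 0.15), which ranked 52 from the top among 16436 tested genes. Replicates were close together, differing 1.24-fold in control and 1.02-fold in cko GCps. Without cko replicate 1, the library with the Xist counts of female tissue, the log2 fold change of Clic6 was 2.87.

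Clic4 (ENSMUSG00000037242, chr4:135213969-135272814, minus strand) had close levels in both genotypes. It was at 412 and 443 CPM in control and 376 and 388 CPM in cko libraries. The cko values were the lower ones without overlap, but the highest cko value was close to the lowest control value. The log2 fold change was -0.16 (standard error 0.10), from 428 ± 21.8 to 382 ± 8.50 CPM (SD, n = 2 each).

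Clic1 (ENSMUSG00000007041, chr17:35049966-35058749, plus strand), which lies in the major histocompatibility complex, was at 273 and 264 CPM in control and 163 and 210 CPM in cko libraries. Both cko libraries were below both control libraries, and replicate 1 was the lower of the cko pair, by 1.29-fold. The means were 268 ± 6.16 and 186 ± 33.3 CPM (SD, n = 2 each), with a log2 fold change of -0.53 (standard error 0.13). Without cko replicate 1 it was -0.34, and without cko replicate 2 it was -0.72.

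The remaining members had few reads. Clic5 (ENSMUSG00000023959, chr17:44188584-44280172, plus strand) had 78 and 57 counts in control and 127 and 97 counts in cko libraries, or 1.02 and 0.945 CPM against 1.65 and 1.58 CPM. Both cko values were above both control values, and the replicates of each genotype were close together. The log2 fold change was 0.71 (standard error 0.25). Clic3 (ENSMUSG00000015093, chr2:25456838-25458776, plus strand) had 36 and 22 counts in control and 26 and 10 counts in cko libraries, or 0.470 and 0.365 CPM against 0.337 and 0.163 CPM. The cko values were the lower ones, but they differed 2.07-fold from each other, and the log2 fold change of -0.72 had a standard error of 0.46.

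**Figure D2:**
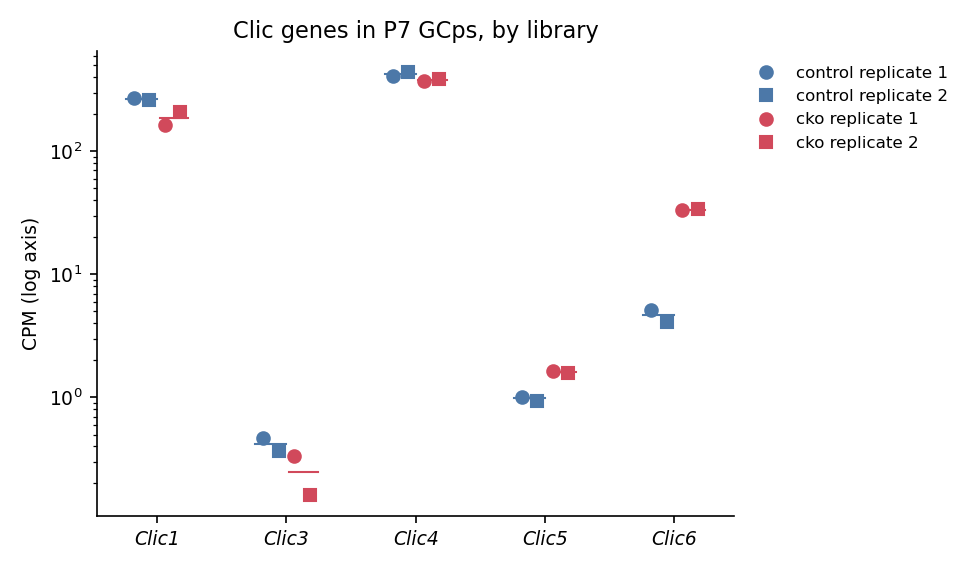
Level of the 5 Clic genes in CPM (vertical log axis) in 2 control and 2 cko libraries of P7 GCps, 1 point per library, with horizontal bars at the mean of each genotype. The mean of Clic6 is 4.64 CPM in control and 33.6 CPM in cko libraries while the lowest values of Clic1 and Clic4 in any library are 163 and 376 CPM.

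By the edgeR quasi-likelihood test at a threshold of 0.05 on the adjusted p, 1 of the 5 members (Clic6) was called, against 1.58% of all tested genes (0.809% higher and 0.773% lower in cko libraries). Nothing is read from that count because the family was chosen on this comparison. All 5 members had genotype groups that did not overlap, as had 43.9% of all tested genes. Clic5 and Clic6 had both cko libraries above both control libraries, as had 22.7% of tested genes, and Clic1, Clic3 and Clic4 had them below, as had 21.2%. Clic6 had log2 fold changes of 2.70 to 3.02 in the 8 other settings tried. These were refits of the counts it was chosen on, so nothing is read from its calls there either. Clic1 was called beside it in DESeq2 (5.36% of genes called), without a low-count filter (3.12%), with the replicate number as a block (6.15%) and without cko replicate 2 (4.19%). It was not called with RLE scaling (1.58%) or without cko replicate 1 (1.4%), control replicate 1 (1.31%) or control replicate 2 (0.675%), so its call depends on the processing.

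The family total is set by Clic1 and Clic4. Divided by exonic length, as FPKM (CPM per kilobase of exon), the order of levels in control GCps was Clic1 (149 ± 3.42 FPKM), Clic4 (65.1 ± 3.31), Clic6 (1.19 ± 0.181), Clic3 (0.412 ± 0.0736) and Clic5 (0.112 ± 0.00593; SD, n = 2 each). The order was the same in cko GCps, with 104 ± 18.5, 58.1 ± 1.29, 8.58 ± 0.104, 0.247 ± 0.122 and 0.184 ± 0.00561 FPKM. In control GCps each member was separated from its neighbors in that order by more than the spread of the libraries. In cko GCps the ranges of Clic3 (0.161 to 0.333 FPKM) and Clic5 (0.180 to 0.188 FPKM) overlapped, so these neighbors could not be ordered. Among all tested genes the level of Clic6 per length stood at percentile 32.2 in control and 66.3 in cko GCps, whereas Clic1 stood at 98.4 and 97.8 and Clic4 at 95.6 and 95.4. Clic6 made up 0.608% and 0.491% of the summed FPKM of the family in control libraries and 5.42% and 4.68% in cko libraries.

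Ratios within a library do not depend on how libraries are scaled. The CPM of Clic6 over that of Clic4 was 0.0125 and 0.00935 in control and 0.0885 and 0.0873 in cko libraries, and over that of Clic5 it was 5.05 and 4.39 in control and 20.2 and 21.5 in cko libraries. Over that of Clic1, the CPM of Clic6 was 0.0189 and 0.0157 in control and 0.204 and 0.161 in cko libraries. Over that of Clic3, it was 10.9 and 11.4 in control and 98.7 and 208 in cko libraries. Each ratio was higher in both cko libraries than in both control libraries. Because Clic6 was chosen for its difference in these same libraries, the ratios are a description and nothing further is read from them.

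The genes Clic4, Clic5 and Clic6 belong to duplicated clusters in which a Clic gene, an Rcan gene (a regulator of the phosphatase calcineurin) and a Runx gene (a transcription factor) lie near each other. Along chromosome 16, Rcan1 lies 14.9 kb before Clic6 and Runx1 60.2 kb beyond it. Rcan1 was at 38.5 and 37.7 CPM in control and 43.7 and 43.9 CPM in cko libraries (log2 fold change 0.20 ± 0.10, standard error, with an adjusted p of 0.466 by edgeR). Runx1 was at 1.25 and 1.28 CPM in control and 1.37 and 1.64 CPM in cko libraries (log2 fold change 0.25 ± 0.25, adjusted p of 0.765 by edgeR). Neither passed, and both log2 fold changes were small beside the 2.85 of the Clic gene between them. Around Clic5, Rcan2 was at 18.3 and 24.3 CPM in control and 11.8 and 16.1 CPM in cko libraries (-0.61, adjusted p = 0.252 in the same edgeR test). Runx2 was at 0.248 and 0.149 CPM in control and 0.467 and 0.520 CPM in cko libraries (1.28, adjusted p = 0.224). Clic5 and its neighbor Runx2 thus both had higher values and Rcan2 lower ones in the cko libraries, none past the threshold. Beside Clic4, Rcan3 had a log2 fold change of -0.29 (adjusted p = 0.406 in the same edgeR test), and Runx3, at no more than 0.0994 CPM in any library, was not tested. Of the 30 nearest tested genes, 3 on each side of each member, 0 passed in edgeR's quasi-likelihood test or in DESeq2. An unadjusted p under 0.05 was found for 4 of the 30 (Ddah2, Runx2, Rcan2 and Kcne1, singled out after their values were seen) and for 13.6% of all tested genes, a share near that of the neighbors. Kcne1, a potassium channel subunit gene 126 kb before Clic6, was at 1.54 and 2.02 CPM in control and 3.60 and 2.29 CPM in cko libraries, with a log2 fold change of 0.73 and an adjusted p of 0.344 in edgeR's test. Ddah2, which breaks down an inhibitor of nitric oxide synthase and starts 0.286 kb after the end of Clic1, was at 864 and 687 CPM in control and 616 and 521 CPM in cko libraries (-0.45, adjusted p = 0.241 in edgeR's test).

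**Figure D3:**
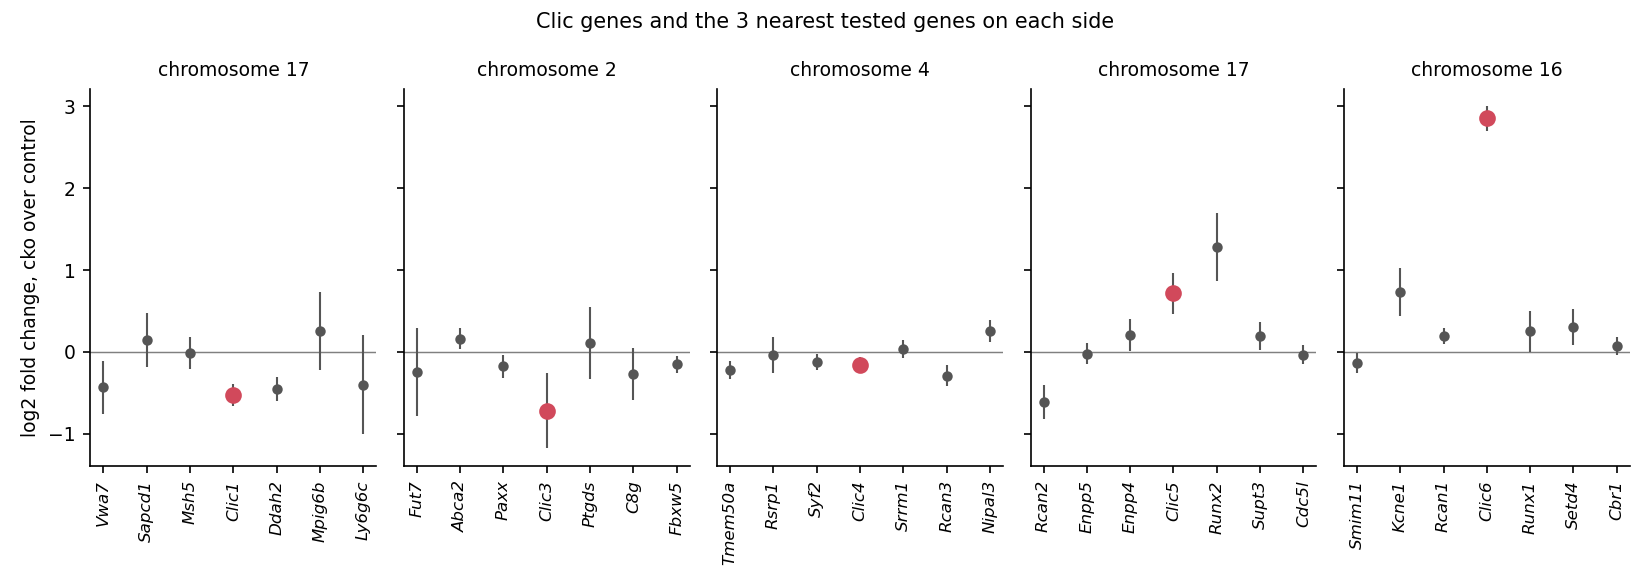
Log2 fold change of cko over control GCps (vertical axis, bars are standard errors of the fit) for each Clic gene (red) and the 3 nearest tested genes on each side (gray), in their order along the chromosome. Clic6 stands at 2.85 between Rcan1 at 0.20 and Runx1 at 0.25, and no gray gene exceeds 1.28.

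Of 25 listed markers of the choroid plexus epithelium, all had counts, 21 were tested and 0 passed edgeR's quasi-likelihood test or DESeq2. An unadjusted p under 0.05 was found for 3 (Aqp1, Otx2 and Enpp2), against 13.6% of all tested genes. Both cko libraries were above both control libraries for 10 of the 21 and below for 3, against 22.7% and 21.2% of all tested genes. Of their log2 fold changes 16 were above 0, with a median of 0.36 against -0.000565 over all tested genes. Their summed level was 130.0 and 121 CPM in control and 172 and 152 CPM in cko libraries, of which Otx2, a transcription factor that GCps also express, made up 66.9 and 77.0 CPM in control and 87.5 and 95.1 CPM in cko libraries. Ttr, which encodes the thyroxine carrier transthyretin and is the defining product of this epithelium, was at 17.9 and 2.64 CPM in control replicates 1 and 2 and at 29.9 and 0.943 CPM in cko replicates 1 and 2. Ttr was thus high in both replicate 1 libraries and low in both replicate 2 libraries, with overlapping genotypes (log2 fold change 0.59 ± 2.26, adjusted p of 0.960 by edgeR).

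Without Ttr, a sum chosen after seeing the data, the choroid plexus list was at 112 and 118.5 CPM in control and 142 and 151.5 CPM in cko libraries. Without Ttr and the genes that other cells also express (Otx2, Lmx1a, Msx1, Slc4a10 and Enpp2), 19 genes remained. This exclusion was not part of the planned comparisons either. It takes out Otx2 and Enpp2, both higher in cko libraries with an unadjusted p under 0.05 in edgeR's test. The sum of the 19 genes was 16.3 and 14.2 CPM in control and 19.0 and 18.4 CPM in cko libraries. These sums were higher in both cko libraries, by far less than Clic6, which was at 5.14 and 4.14 CPM in control and 33.3 and 33.9 CPM in cko libraries. The part of choroid plexus RNA in the values of Clic6 was not tested. The other 6 defining markers summed to 1.91 and 1.28 CPM in control and 3.00 and 1.54 CPM in cko libraries. Folr1, a folate receptor gene, had 23 and 15 counts in control and 61 and 21 counts in cko libraries, with both cko values in CPM above both control values. Aqp1, a water channel gene, had 29 and 19 counts in control and 79 and 30 counts in cko libraries, and its CPM did not overlap between genotypes either (0.379 and 0.315 against 1.02 and 0.488). Kl, which encodes klotho, had 58 and 32 counts in control and 37 and 28 in cko libraries, so that its cko values in CPM were below the control values. Sostdc1 had 17 and 7 counts in control and 31 and 7 in cko libraries, the ion channel subunit gene Kcne2 had 13 and 2 against 21 and 7, and the potassium channel gene Kcnj13 had 6 and 2 against 2 and 2. None of the 7 was at 0 in every library. Of the tested ones, Folr1 (adjusted p = 0.427), Aqp1 (0.324), Sostdc1 (0.791), Kcne2 (0.726) and Kl (0.658) failed the edgeR quasi-likelihood test. Markers of ependyma, the ciliated lining of the ventricle, summed to 21.5 and 24.5 CPM in control and 35.1 and 23.1 CPM in cko libraries, with 0 of 12 past edgeR's test or DESeq2 and 1 at an unadjusted p under 0.05, against 13.6% of all tested genes. All 12 log2 fold changes were above 0, with a median of 0.31. For 3 of the 12 both cko libraries were above both control libraries, and for 0 below, against 22.7% and 21.2% of all tested genes. The ependymal sum was higher than in both control libraries only in cko replicate 1. Foxj1, the ependymal marker with the highest CPM, was at 5.46 and 6.71 CPM in control and 10.2 and 5.33 CPM in cko libraries.

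**Figure D4:**
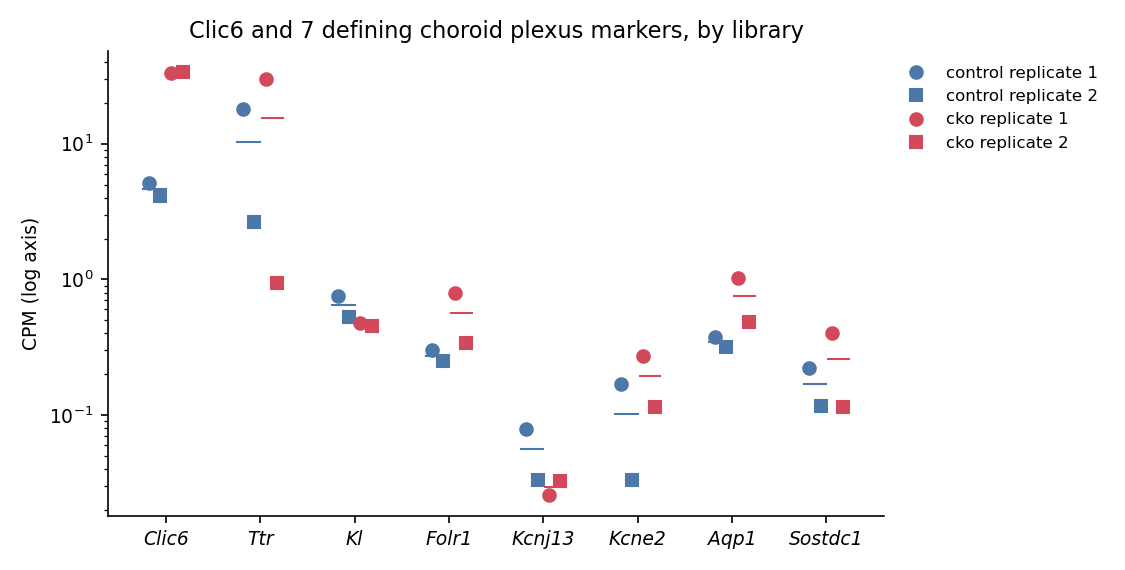
Clic6 and 7 defining markers of the choroid plexus epithelium in CPM (vertical log axis) in 2 control (blue) and 2 cko (red) libraries, circles for replicate 1 and squares for replicate 2, bars at the mean of each genotype. Clic6, Folr1 and Aqp1 have both cko libraries above both control libraries, while Ttr is at 17.9 and 29.9 CPM in the replicate 1 libraries and at 2.64 and 0.943 CPM in the replicate 2 libraries.

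Other cell types that the preparation could hold were followed by their marker lists. Skeletal muscle markers moved with the genotype. In edgeR's quasi-likelihood test 6 of 14 rose in cko libraries, against 0.809% of all tested genes, and 0 fell. All 14 had both cko libraries above both control libraries, against 22.7% of all tested genes, with a summed level of 17.6 and 14.2 CPM in control and 50.9 and 84.9 CPM in cko libraries. Those named by the rule were Myog (log2 fold change 3.04, adjusted p = 0.0129), Tnnt1 (2.90, adjusted p = 0.0242), Actn2 (3.11, adjusted p = 0.0362) and Ckm (4.23, adjusted p = 0.0380). Without control replicate 2 the adjusted p in edgeR was 0.0731 for Tnnt1, 0.103 for Actn2 and 0.148 for Ckm, so that these calls were lost, while that of Myog was 0.0235. The muscle sum was higher in cko replicate 2 than in cko replicate 1, while Clic5 (1.65 and 1.58 CPM) and Clic6 (33.3 and 33.9 CPM) differed little between them, and the part of muscle RNA in their values was not tested. Endothelial markers summed to 410 and 360 CPM in control and 518 and 537 CPM in cko libraries, with 16 of 17 log2 fold changes above 0, of which edgeR called 0 and DESeq2 called 7, against 5.36% of all tested genes called by DESeq2 in either direction. Of the 16, 11 had an unadjusted p under 0.05 in edgeR's test, against 13.6% of all tested genes. The transporter gene Slco1a4 fell (log2 fold change -1.18, adjusted p of 0.0415 by edgeR), a call lost without cko replicate 1 (0.0810), control replicate 1 (0.0947) or control replicate 2 (0.108). Endothelial cells express Clic1 and Clic4, and the part of endothelial RNA in the values of Clic1 and Clic4 was not tested. Summed marker levels were also taken for microglia and macrophages (397 to 439 CPM in control, 420 to 449 CPM in cko libraries), meningeal fibroblasts (229.7 to 232 and 235 to 252 CPM) and mural cells (146 to 158 and 162 to 220.2 CPM). Of the fibroblast sum, Pdgfra alone made up 136 and 146 CPM in control and 148 and 142 CPM in cko libraries. That sum therefore mostly followed 1 gene. All 9 mural markers, among them Des, which is also on the skeletal muscle list, had log2 fold changes above 0. Their median was 0.27, against -0.000565 over all tested genes. Sums for astrocytes and Bergmann glia were 1135 to 1211 CPM in control and 984 to 995 CPM in cko libraries, and those for Purkinje cells were 234 to 238 and 215 to 231 CPM. In these last 5 lists edgeR called 0 genes. DESeq2, which called 5.36% of all tested genes, called 0 of 16 (microglia and macrophages), 1 of 12 (fibroblasts), 2 of 9 (mural cells), 3 of 12 (astrocytes and Bergmann glia) and 1 of 8 (Purkinje cells). In the same order 1, 1, 2, 5 and 2 had an unadjusted p under 0.05 in edgeR's test, against 13.6% of all tested genes. For astrocytes and Bergmann glia these 5 and the 3 that DESeq2 called were all lower in cko libraries. Of the 12 glial markers, 10 had log2 fold changes below 0 and 2 above, with a median of -0.18. For 7 of them both cko libraries were below both control libraries, and for 1 above, against 21.2% and 22.7% of all tested genes. The marker with the highest CPM in each of these 5 lists was Csf1r, Pdgfra, Rgs5, Slc1a3 and Lhx1, with log2 fold changes of 0.26, 0.04, 0.29, -0.41 and -0.34. Lhx1 does not stand for its list: of the 8 tested Purkinje markers, 5 had log2 fold changes above 0 and 3 below. Their median was 0.18, and the gene that DESeq2 called was higher in cko libraries. For 3 of the 8 both cko libraries were above both control libraries, and for 1 below. The part of these cells in the values of the Clic genes was not tested.

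Other genes of chloride transport showed no change of the size seen for Clic6. Of 51 listed channel, cotransporter and exchanger genes, 38 were tested and 0 passed edgeR's quasi-likelihood test. An unadjusted p under 0.05 was found for 6 of the 38, near the 13.6% of all tested genes. These were Best1, with a higher value in cko libraries, and Clcn5, Clcn6, Ttyh1, Ttyh2 and Ano3 with lower ones (singled out after their values were seen). Of the 38, DESeq2 called 2, Clcn5 and Ano3, near the 5.36% of all tested genes that it called. The median log2 fold change of the 38 was 0.02, and their range was -1.76 (Ano3) to 1.36 (Best1). All 7 tested members of the CLC family of channels and exchangers had log2 fold changes between -0.46 and 0.02, and Clcn5, which acidifies endosomes, was at 42.1 and 42.6 CPM in control and 32.0 and 29.5 CPM in cko libraries (log2 fold change -0.46 ± 0.10, adjusted p of 0.102 by edgeR). The 7 tested cation-chloride cotransporters stayed between -0.06 and 0.31, among them Slc12a2, which loads immature neurons with chloride, at 104 and 105 CPM in control and 117 and 109 CPM in cko libraries. Slc12a5, which extrudes chloride from mature neurons, was at 0.849 and 0.713 CPM in control and 1.06 and 0.878 CPM in cko libraries. The 4 tested subunits of the volume-regulated anion channel (Lrrc8) lay between -0.19 and 0.17. Ttyh3, the gene of the list with the highest CPM, was at 457 and 409 CPM in control and 380 and 368 CPM in cko libraries, with a log2 fold change of -0.21 (adjusted p = 0.470 in edgeR's test).

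**Figure D5:**
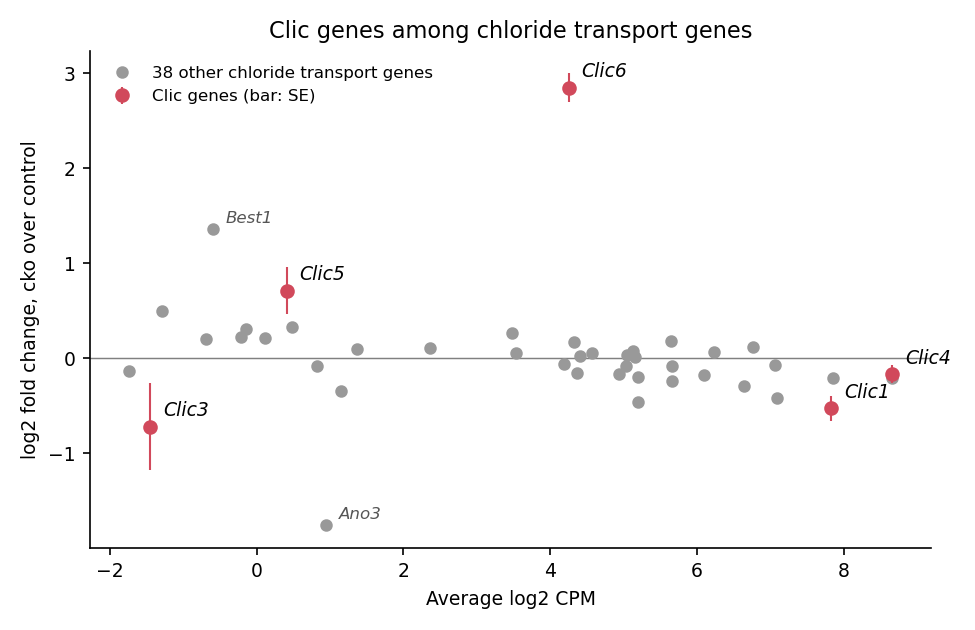
Log2 fold change of cko over control GCps (vertical axis) against average log2 CPM (horizontal axis) for the 5 Clic genes (red, bars are standard errors) and the 38 other tested chloride transport genes (gray). Clic6 stands at 2.85, while the gray genes lie between -1.76 and 1.36.

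Genes of proteins that bind CLIC proteins, and of the omega glutathione transferases that share their fold, showed small differences between genotypes. Of 20 listed genes 17 were tested, 0 passed edgeR's quasi-likelihood test or DESeq2, 2 had an unadjusted p under 0.05 against 13.6% of all tested genes, and log2 fold changes ran from -0.28 to 0.42. The linker gene Ezr, which encodes ezrin, was at 381 and 385 CPM in control and 365 and 388 CPM in cko libraries. Gsto1 was at 19.3 and 19.5 CPM in control and 21.0 and 24.4 CPM in cko libraries. Ywhaz, with the highest CPM of the list, which encodes a 14-3-3 protein, was at 938 and 992 CPM in control and 747 and 955 CPM in cko libraries. CLIC6 is known to bind dopamine receptors of the D2 type, and Drd2 was at 0.418 and 0.729 CPM in control and 0.571 and 0.634 CPM in cko libraries, with Drd3 at 0 counts in all 4 libraries. Drd4, which was not tested, was at 0.0914 and 0.0497 CPM in control and 0.117 and 0.228 CPM in cko libraries.

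The genes most like Clic6 were sought by the Euclidean distance between log2 CPM profiles over the 4 libraries, each centered on its mean, leaving out tested genes averaging under 1 log2 CPM. The nearest were the pseudogene Gm8822 (distance 0.56), whose reads cannot be told apart with certainty from those of its parent gene, the embryonic myosin gene Myh3 (0.65), the potassium channel gene Kcnk13 (0.74), the adhesion gene Sdk2 (0.74) and the adrenergic receptor gene Adra2c (0.76). With 4 libraries in 2 genotypes, this measure ranks genes mostly by the size of the difference, and it is a description. Adra2c was the most even of them, with 4.54 and 4.96 CPM in control and 22.0 and 20.6 CPM in cko libraries, and Kcnk13 went from 1.93 and 1.77 to 9.01 and 7.67 CPM. Myh3, by contrast, was at 12.1 CPM in cko replicate 1 and 22.3 CPM in cko replicate 2, whereas Clic6 was at 33.3 and 33.9 CPM. None of the 5 lies on chromosome 16, and none is a chloride channel gene.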

How the data were processed

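Each RNA-Seq library has a file of raw read counts per gene, as the authors deposited it. They aligned reads to mm10 with TopHat2 2.0.14 and counted them per gene of Ensembl 75 with HTSeq 0.6.1p1 in intersection-strict mode, skipping alignments of quality under 3. Strand handling was not given in the sources used here. Total counts per library are in the report. ATAC-Seq and ChIP-Seq samples were not analysed here.

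Genes were filtered with filterByExpr and tested in edgeR 4.0.16 (R 4.3.3) after TMM scaling, by the robust quasi-likelihood test with Benjamini-Hochberg adjustment over 16436 genes at a threshold of 0.05. The standard error is the log2 fold change divided by the root of F. FPKM used the union of exons in GENCODE vM21, which held 37607 of the 38924 genes. An exact permutation test of 2 against 2 cannot go below p = 0.333. Named were all members, Rcan and Runx genes, 3 tested neighbors on each side, 7 choroid plexus markers, the 5 most similar profiles and, per list, up to 4 called genes or else the gene with the highest CPM. Members and lists were chosen with earlier results of these data known. Alternatives were DESeq2 1.42.0, its size factors (RLE), no low-count filter, the replicate number as a block, and each library left out. Steps were tested on simulated counts.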

Additional observations from a re-analysis of the deposited data

How the results depend on the processing

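Clic6 kept its direction in all 8 alternatives, and no member changed direction in any. The family was chosen for the difference of Clic6 in these same counts, so its calls in refits of them are not read as support. The called members were 2 (Clic1 besides Clic6) with DESeq2, without the low-count filter, with the replicate block and without cko replicate 2, and 1 in the other alternatives, so leaving out 1 library gave 1 to 2. Leave-one-out log2 fold changes ran from 2.70 to 3.02 for Clic6, -0.72 to -0.34 for Clic1, -0.22 to -0.11 for Clic4, 0.66 to 0.77 for Clic5 and -1.35 to -0.31 for Clic3. Genes called higher and lower, 133 and 127 in all, became 453 and 428 with DESeq2, 387 and 340 without the filter and 530 and 480 with the replicate block. Leaving out 1 library gave 54 (without control replicate 2) to 320 (without cko replicate 2) higher and 61 to 392 lower, respectively. With all libraries kept, chloride transport genes called went from 0 to 2 with DESeq2 (Clcn5 and Ano3), 1 without the filter (Clcn5) and 1 with the replicate block (Clcn5). In the same order these settings called 5.36%, 3.12% and 6.15% of all tested genes. Ano3 also depended on the libraries kept, with a log2 fold change of -2.65 without cko replicate 2 against -1.76 in the main fit. With the replicate block, 2 of 21 tested choroid plexus genes (Otx2 and Enpp2, both higher) and 2 of 30 neighbors (Ddah2 and Rcan2, both lower) were called. That setting called 6.15% of all tested genes, and the edgeR test without it called 0 in either list. With the length of the longest transcript, Clic6 made up 0.428% of the family in control and 3.91% in cko GCps. Log2 fold changes with 1 library left out ran from -0.18 (without cko replicate 1, a reversal) to 0.74 for Foxj1 and from -0.012 (without control replicate 1, a reversal) to 0.092 for Pdgfra, a gene of the fibroblast list. The causes were not tested. The replicate numbers are not known to pair samples; deviations of control 1 and cko 1 from their group means correlated at 0.187 over genes. Clic3, with 10 to 36 counts a library, was too shallow to order against Clic5 in cko GCps.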
